A study of Rattus norvegicus with 8 samples.

Results

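Proteasome subunit genes were read on 8 arrays of rat frontal cortex RNA. They were taken as every probe set whose single gene symbol in the platform's annotation was Psma, Psmb, Psmc, Psmd, Psme or Psmf followed by a number. This gave 54 probe sets of 40 genes, out of 20826 probe sets with 1 symbol. Male Sprague-Dawley rats that weighed about 200 g at the start received olanzapine, an antipsychotic that blocks dopamine and serotonin receptors, given intraperitoneally at 2 mg/kg/day for 21 days, or saline over the same time. Each group had 20 animals, and arrays were made from 4 of each group, named here by group and animal number. Values are given in the order saline 14, 15, 17 and 19 and olanzapine 9, 14, 18 and 19. The rats carried no transgene or other treatment that the labels name.

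The proteasome is the protease that degrades proteins tagged with ubiquitin. Its core particle is a barrel of alpha rings, which gate the entry, around beta rings, which hold the proteolytic sites. A regulatory particle of ATPases and other subunits binds the tagged protein, removes the ubiquitin and unfolds the chain into the core, and alternative caps can take its place. In neurons, proteasomes also act at synapses, where turnover of receptors and scaffolds is part of plasticity.

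No proteasome subunit passed the test between olanzapine and saline, and the values of most subunits were close in both groups. A filter on dim probe sets left 46 member probe sets of 37 genes, among 18625 probe sets tested, and the filter used all arrays without regard to group. By limma, 0 of 46 passed an adjusted p of 0.05, the smallest adjusted p of a member being 0.529, and 0% of all probe sets passed. The median log2 difference, olanzapine minus saline, was -0.064 over the members, which is 1.05-fold lower, and 0.027 over all tested probe sets. All log2 differences are on the scale of log2(intensity + 63.4), which understates the change of dim probe sets. No member differed by more than 1.5-fold, against 1.43% of all tested probe sets. Members ran from -0.39 for Psmd4 to 0.49 for Psmb2, with quartiles of -0.16 and 0.08, and the quartiles over all probe sets were -0.096 and 0.16.

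**Figure D1:**
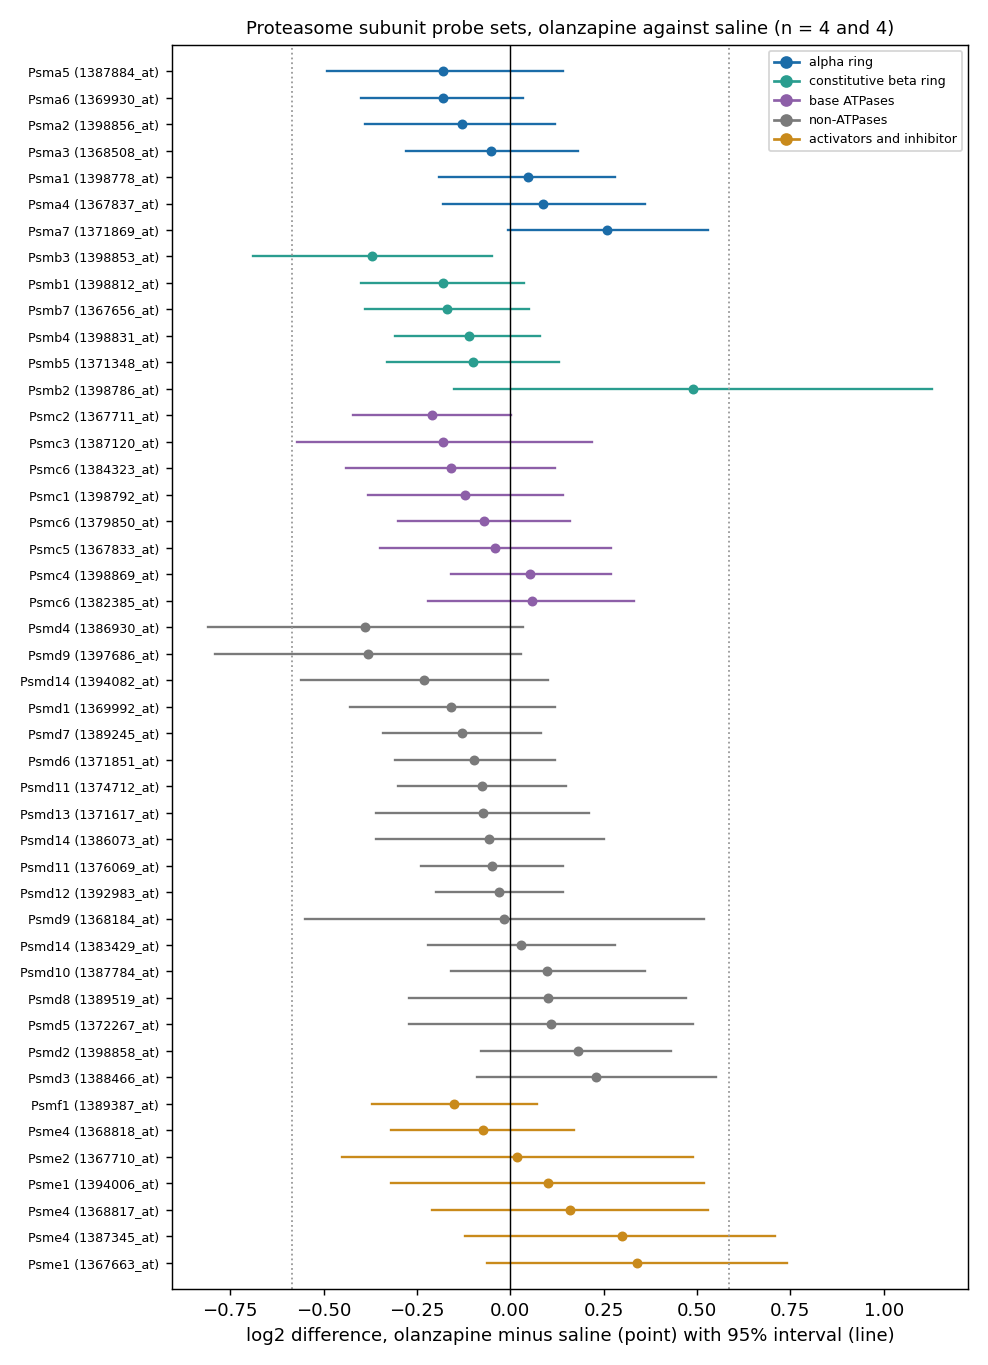
Log2 difference, olanzapine minus saline (horizontal axis, log2 units), of the 46 tested proteasome probe sets, each a point with the 95% interval of the limma fit as a line (n = 4 and 4 arrays), coloured by subunit group. Dotted lines mark 1.5-fold either way, and the intervals of 40 of the 46 lie between them.

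The arrays set a limit on the size of any change. The 95% interval lay within 1.5-fold either way for 40 of 46 members, against 67.6% of all tested probe sets, and within 2-fold for 45 of 46, against 96.3%. The 6 members whose interval reached past 1.5-fold were Psmb2, Psmb3, Psmd4, 1 of 2 probe sets of Psmd9, 1 of 2 of Psme1 and 1 of 3 of Psme4. The median standard error was 0.13, from 0.079 for Psmd12 to 0.3 for Psmb2. The median residual SD between arrays of a group was 0.157 over the members and 0.223 over all tested probe sets. Tested probe sets were also divided by mean brightness into 5 classes of equal size, and in the brightest class these SDs were 0.128 for 14 members and 0.14 for all.

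At an unadjusted limma p under 0.05 there was 1 of 46 members, Psmb3, which was lower in olanzapine, against 8.32% of all tested probe sets, 4.59% higher and 3.73% lower. The 4 values of each group did not overlap for 2 of 46 members, Psmb3 and 1 probe set of Psmd14, both lower in olanzapine, against 4.47% of all tested probe sets in either direction, 2.4% higher and 2.07% lower. With 1 array left out, the count at an unadjusted p under 0.05 was 0 without olanzapine 14 or olanzapine 18, where the background was 6.71% and 7.11%. It was 1 without olanzapine 19 or saline 15 (7.29% and 8.42%), 2 without olanzapine 9 or saline 14 (6.2% and 7.24%), 5 without saline 19 (11.5%) and 6 without saline 17 (7.48%). The count of members that did not overlap was 2 without saline 15 (8.06%) and 3 without olanzapine 9, olanzapine 14 or saline 14 (6.78%, 7.16% and 7.24%). It was 4 without olanzapine 18 or olanzapine 19 (7.59% and 7.75%), 5 without saline 19 (11.5%) and 6 without saline 17 (7.17%).

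Over all probe sets the median difference was lower in the 2 brightest classes than in the other 3, and so was that of the members, although not in steady order. Of the 46 members 32 were brighter than the median tested probe set, and 29 were lower in olanzapine, against 44% of all tested probe sets. In the brightest class 13 of 14 members were lower, with a median of -0.086, and 64% of the 3725 probe sets there were lower too, with a median of -0.054. In the next brightest class, 9 of 16 members were lower, with a median of -0.057, against 0.023 over all. The 7 members of the middle class had a median of 0.019, against 0.058 over all, and the 6 in the class next to the dimmest one of 0.1, against 0.076. In the dimmest class 2 of 3 members were lower, with a median of -0.016, where all probe sets had one of 0.071. After quantile normalization, which gives the arrays 1 distribution of intensities, 26 of 46 members were lower against 48.9%, and 9 of 14 in the brightest class against 50.4%. After cyclic loess 26 were lower against 50.1%, and after median centring 32 against 55%. The member median was -0.064 both as deposited and after quantile normalization, and the median of all probe sets was then 0.0046. After median centring the member median was -0.12 and that of all probe sets -0.025. Saline 14, 15 and 17 reached an intensity of 6174 to 6287 at the 98th percentile, above saline 19 at 5618 and the olanzapine arrays at 5474 to 5735. The part of this difference between arrays in the member values was not tested.

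**Figure D2:**
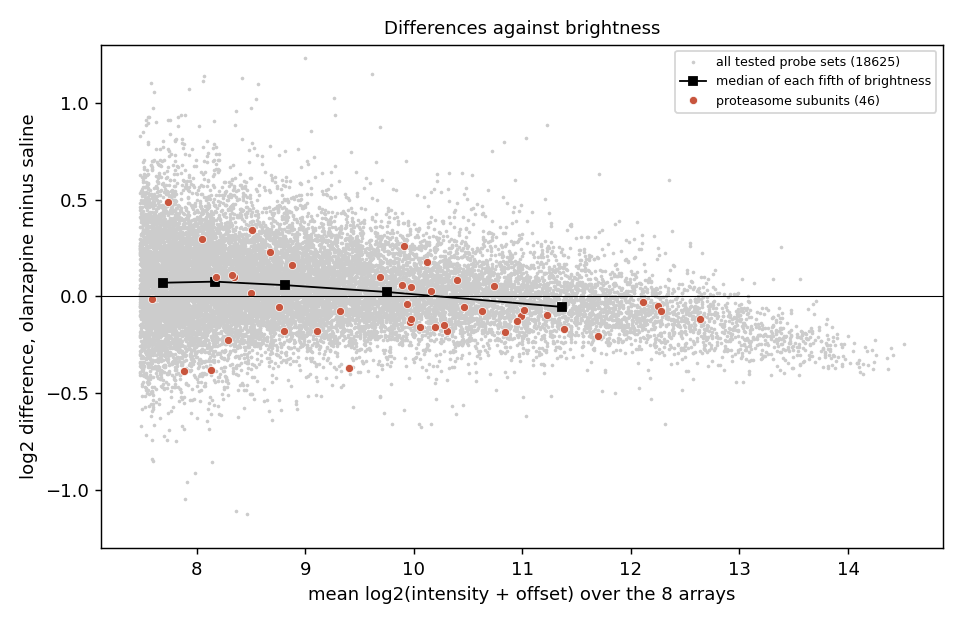
Log2 difference, olanzapine minus saline (vertical axis), against mean log2(intensity + 63.4) over the 8 arrays (horizontal axis). Grey dots are the tested probe sets, 3 of which lie outside the plotted range, red points the 46 proteasome probe sets, and black squares the median of each brightness class, which runs from 0.071 in the dimmest to -0.054 in the brightest.

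The core particle's alpha ring, which opens and closes the entry to the barrel, was represented by Psma1 to Psma7, each with 1 tested probe set. Of the 7 subunits 4 were lower and 3 higher in olanzapine, with a median of -0.052 and a range from -0.18 to 0.26. Psma7 had intensities of 723, 771, 911 and 868 in saline and 849, 1156, 1045 and 929 in olanzapine. Olanzapine 14, 18 and 19 lay above every saline array, and olanzapine 9 within the saline range. The means were 818 ± 86.6 and 995 ± 134 (SD, n = 4), a log2 difference of 0.26 (SE 0.13, limma adjusted p 0.617). Psma6 had intensities of 1864, 2016, 1653 and 2028 in saline and 1572, 1624, 1850 and 1574 in olanzapine. Only olanzapine 18 reached into the saline range, and saline 17 lay at its low end. Its log2 difference was -0.18 (SE 0.1, limma adjusted p 0.696). Psma5 differed by -0.18 (SE 0.15), Psma2 by -0.13 (SE 0.12) and Psma3 by -0.052 (SE 0.11), and Psma4 and Psma1 by 0.087 (SE 0.13) and 0.047 (SE 0.11). Psma4 was -0.011 without saline 15.

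In the constitutive beta ring 5 of the 6 tested subunits were lower in olanzapine, with a median of -0.14, and only Psmb2 was higher. Psmb3, a structural subunit without proteolytic activity, had intensities of 609, 984, 646 and 644 in saline and 556, 496, 487 and 601 in olanzapine. Every saline array lay above every olanzapine array, although saline 14 at 609 and olanzapine 19 at 601 were close, and saline 15 stood far above the other arrays. The means were 721 ± 176 and 535 ± 53.8 (SD, n = 4). The log2 difference was -0.37 (SE 0.15, 95% interval -0.69 to -0.048, limma adjusted p 0.529), and it was -0.22 without saline 15. With all 70 ways of assigning arrays to groups enumerated (exact permutation test, two-sided), p was 0.0286, the smallest this design allows. After adjustment over all tested probe sets it was 0.64, also the smallest of any probe set. Groups that do not overlap always give these values, so they add nothing to the lack of overlap. Psmb1, also a structural subunit, had intensities of 1362, 1244, 1208 and 1323 in saline and 1039, 1127, 1113 and 1224 in olanzapine. Olanzapine 19 alone reached into the saline range. The log2 difference of Psmb1 was -0.18 (SE 0.1, limma adjusted p 0.699).

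The upstream sequences of Psmb3 and Psmc2 are shown because these genes had the smallest p among the members. They are the 250 bases before the gene's start in RefSeq on GRCr8, read 5′ to 3′ on the gene's strand, for Psmb3 from chr10:83193537-83193786 on the plus strand and for Psmc2, an ATPase of the regulatory particle, from chr4:14162391-14162640 on the minus strand. Capitals mark every match on either strand to the CCAAT box ATTGG, the GC box GGGCGG, the ETS core CCGGAA and the antioxidant response element core TGACNNNGC.
Psmb3: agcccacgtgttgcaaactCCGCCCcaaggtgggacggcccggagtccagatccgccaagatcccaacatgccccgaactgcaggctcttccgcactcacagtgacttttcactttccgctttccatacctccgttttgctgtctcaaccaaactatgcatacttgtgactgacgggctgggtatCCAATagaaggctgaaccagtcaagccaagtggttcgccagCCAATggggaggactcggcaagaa
Psmc2: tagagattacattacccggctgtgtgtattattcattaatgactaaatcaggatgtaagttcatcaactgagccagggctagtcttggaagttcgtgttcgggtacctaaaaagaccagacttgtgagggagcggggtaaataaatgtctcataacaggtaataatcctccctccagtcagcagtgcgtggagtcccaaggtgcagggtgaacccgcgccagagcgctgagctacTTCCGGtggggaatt
Psmb3 held 2 CCAAT boxes and 1 GC box, all in the opposite orientation to the letters above. Psmc2 held 1 ETS core, also in the opposite orientation, and none of the other motifs.

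Short motifs that the choice by name did not use were more frequent in member promoters than over all genes. The windows of all genes were not matched to the members in gene type, expression or base content. RefSeq windows matched 36 of the 40 member genes, all but Psma7, Psmd6, Psmd12 and Psmd14. A GC box was found in 24 of 36 upstream windows, against 30.5% of 33469 windows of all genes. A CCAAT box stood in 18 of 36, against 34%, and an ETS core in 15 of 36, against 12.6%. None of the searched letter strings contains another, but matches can share bases, as in Psmb2, where a TGACNNNGC match shares bases with a CCAAT box and a GC box. A match describes letters and not binding.

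The proteolytic sites of the core lie on 3 beta subunits, of which Psmb5 and Psmb7 were members with a tested probe set. Psmb6 is on this array only in a probe set listed with several genes, and was not analysed here. Psmb5, the chymotrypsin-like site, had intensities of 1882, 2204, 1955 and 2104 in saline and 1596, 2084, 1816 and 2121 in olanzapine. The groups overlapped over most of their range, and the log2 difference was -0.1 (SE 0.11, limma adjusted p 0.851). Psmb7, the trypsin-like site, had intensities of 2629, 2935, 3115 and 2441 in saline and 2231, 2466, 2738 and 2416 in olanzapine. Saline 14 and saline 19 lay among the olanzapine arrays, and the log2 difference was -0.17 (SE 0.1, limma adjusted p 0.721). Psmb4, a structural subunit, had a log2 difference of -0.11 (SE 0.092), and quantile normalization turned it to 0.014.

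Psmb2 had the largest positive difference of the members and the widest spread. Its intensities were 166, 24.4, 137 and 200 in saline and 225, 229, 129 and 189 in olanzapine. Saline 15 was far below the other arrays, and the remaining saline arrays overlapped with olanzapine. The log2 difference was 0.49 (SE 0.3, limma adjusted p 0.728), and 0.14 without saline 15. The other Psmb5 probe sets did not pass the filter. Probe set 1385531_at was at 21.4, 77.7, 12.4 and 120 in saline and 12.3, 32.2, 7.62 and 14.3 in olanzapine, and 1385532_x_at at 76.9, 122, 16.9 and 77.9 and at 86, 19.2, 105 and 36.4. Values of both varied several-fold within each group.

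The immune beta subunits, which interferon induces and which replace the constitutive sites in the immunoproteasome, were all too dim to be tested. Psmb8 had intensities of 89.1, 73.8, 41.9 and 100 in saline and 137, 15.8, 85.6 and 78.3 in olanzapine. Psmb9 was at 16.6, 57.1, 7.33 and 14.2 in saline and 33.6, 19.1, 60.7 and 65.5 in olanzapine. Psmb10 was at 149, 77.5, 93.1 and 134 in saline and 60.1, 129, 70.4 and 92.8 in olanzapine. In all 3 genes the groups overlapped, and arrays of the same group lay farther apart than the means of the groups. RefSeq on GRCr8 lists Psmb8 between the peptide transporter genes Tap2 and Tap1, and Psmb9 next to Tap1. Of 8 genes of interferon response and antigen presentation on the array, Tap1, Tap2, Tapbp, Irf1 and Nlrc5 were also left out by the filter. B2m, the light chain of class I molecules, differed by 0.015 (SE 0.08), Ifngr1 by -0.058 (SE 0.18) and Ifngr2 by -0.00032 (SE 0.23). Summed intensities of 10 microglia markers were 1523 to 1952 in saline and 1490 to 1989 in olanzapine, and the 6 tested ones had a median difference of 0.06, which quantile normalization turned to -0.00088.

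**Figure D3:**
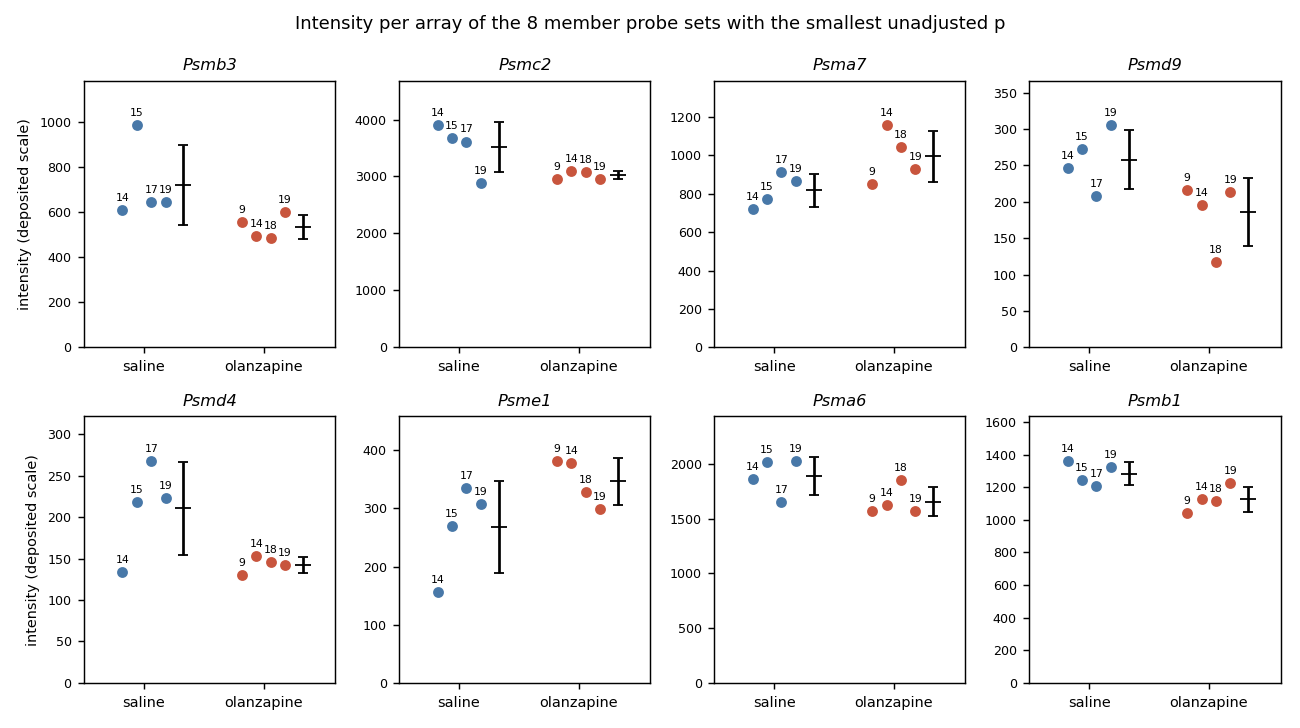
Deposited intensity (vertical axis, from 0) on each array, labelled by animal number, of the 8 member probe sets with the smallest unadjusted p. Blue points are saline and red points olanzapine, and black bars give the mean ± SD of 4 arrays. The groups overlap in every panel but that of Psmb3.

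The base of the regulatory particle holds a ring of 6 ATPases, Psmc1 to Psmc6, which unfold the substrate. Of 8 tested probe sets 6 were lower and 2 higher in olanzapine, with a median of -0.095. Psmc2 had intensities of 3896, 3673, 3614 and 2894 in saline and 2960, 3094, 3083 and 2957 in olanzapine. Saline 14, 15 and 17 lay above all olanzapine arrays, and saline 19 below them. The means were 3519 ± 434 and 3023 ± 75.3 (SD, n = 4), a log2 difference of -0.21 (SE 0.098, limma adjusted p 0.609). Without saline 19 Psmc2 differed by -0.3, with a limma adjusted p of 0.148, the smallest of any member in any alternative.

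Psmc6 had 3 tested probe sets that differed in sign. The brightest, 1379850_at, was at 2281, 1708, 2222 and 2077 in saline and 2109, 1957, 1985 and 1792 in olanzapine, a log2 difference of -0.071 (SE 0.11). Probe set 1384323_at was at 1173, 1499, 914 and 1176 in saline and 951, 1071, 1092 and 1069 in olanzapine, with -0.16 (SE 0.13). Saline 15 was the lowest saline array on the first and the highest on the second. Probe set 1382385_at was at 826, 878, 1060 and 736 in saline and 1030, 928, 792 and 892 in olanzapine, with 0.059 (SE 0.13). The groups overlapped on all 3. Psmc3 differed by -0.18 (SE 0.19), Psmc1 by -0.12 (SE 0.12), Psmc5 by -0.04 (SE 0.15) and Psmc4 by 0.052 (SE 0.1). A dim probe set of Psmc4 was at 4.89 to 19.7 on the 8 arrays and was not tested.

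Non-ATPase subunits form the rest of the base and the lid, and among them are subunits that bind or cut ubiquitin chains. Of 18 tested probe sets with a Psmd name 12 were lower and 6 higher in olanzapine, with a median of -0.053. These include the probe sets of the assembly chaperones Psmd5, Psmd9 and Psmd10, described below. Psmd4, a receptor for ubiquitin chains, had intensities of 134, 218, 268 and 223 in saline and 130, 153, 146 and 142 in olanzapine. Saline 15, 17 and 19 lay above all olanzapine arrays, and saline 14 among them. The log2 difference was -0.39 (SE 0.2, limma adjusted p 0.648), and the SD of the intensities was 55.9 in saline and 9.5 in olanzapine.

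Psmd14 encodes the deubiquitinase of the lid, and its 3 tested probe sets differed in sign. Probe set 1394082_at was at 272, 275, 293 and 261 in saline and 188, 235, 252 and 231 in olanzapine. All saline arrays lay above all olanzapine arrays, and the log2 difference was -0.23 (SE 0.15, limma adjusted p 0.758). The exact two-sided permutation p was again 0.0286, and 0.64 after adjustment over all tested probe sets. These values only restate that the groups did not overlap. The brightest probe set of the gene, 1383429_at, was at 1051, 1255, 957 and 1031 in saline and 1043, 974, 1218 and 1146 in olanzapine, a log2 difference of 0.029 (SE 0.12). The remaining one, 1386073_at, was at 330, 331, 413 and 456 in saline and 362, 353, 367 and 366 in olanzapine, with -0.057 (SE 0.14). On these 2 the groups overlapped.

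Assembly chaperones of the base, which leave the finished particle, are also named Psmd. For Psmd9, probe set 1397686_at was at 247, 272, 208 and 305 in saline and 216, 196, 118 and 214 in olanzapine, a log2 difference of -0.38 (SE 0.19, limma adjusted p 0.642). Olanzapine 18 was the lowest array by a wide margin, and the difference was -0.23 without it. The other Psmd9 probe set differed by -0.016 (SE 0.25). Psmd10 differed by 0.099 (SE 0.12) and Psmd5 by 0.11 (SE 0.18). The scaffold subunits Psmd1 and Psmd2 of the base differed by -0.16 (SE 0.13) and 0.18 (SE 0.12). Among lid subunits Psmd3 differed by 0.23 (SE 0.15), Psmd8 by 0.1 (SE 0.17), Psmd7 by -0.13 (SE 0.099), Psmd6 by -0.097 (SE 0.1), Psmd13 by -0.074 (SE 0.13) and Psmd12 by -0.03 (SE 0.079). Both tested probe sets of Psmd11 were below 0, at -0.075 (SE 0.11) and -0.05 (SE 0.089). Dim probe sets of Psmd7 and Psmd11, at 26.6 to 209 and 47.5 to 136, were not tested.

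The alternative caps and the inhibitor gave 5 of 7 tested probe sets higher in olanzapine, with a median of 0.1 that was 0.043 after quantile normalization. Psme1 and Psme2 form an interferon-induced ring that opens the core without ubiquitin. Probe set 1367663_at of Psme1 was at 156, 270, 336 and 308 in saline and 382, 379, 328 and 299 in olanzapine. Saline 14 was far below the others, and the log2 difference of 0.34 (SE 0.19, limma adjusted p 0.692) was 0.16 without it. Its other probe set, 1394006_at, was at 219, 165, 195 and 300 in saline and 181, 209, 315 and 256 in olanzapine, with 0.1 (SE 0.2). Psme2 was at 264, 165, 402 and 418 in saline and 282, 281, 271 and 379 in olanzapine. Its groups overlapped fully and its log2 difference was 0.019 (SE 0.22), with the sign turned to -0.036 by quantile normalization. Psme3 is on this array only in probe sets listed with several genes, and was not analysed here.

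Psme4 encodes a large nuclear activator of the core, and its 3 tested probe sets differed in sign. The brightest, 1368818_at, was at 5056, 5845, 4826 and 4475 in saline and 5717, 3865, 5021 and 4675 in olanzapine, a log2 difference of -0.074 (SE 0.12). Probe set 1368817_at was at 299, 412, 393 and 428 in saline and 414, 588, 448 and 318 in olanzapine, with 0.16 (SE 0.17). Probe set 1387345_at was at 132, 243, 153 and 189 in saline and 292, 221, 234 and 184 in olanzapine, with 0.3 (SE 0.2). The groups overlapped on all 3. Psmf1, an inhibitor of the core in vitro, was at 1176, 1371, 1280 and 1166 in saline and 1069, 1165, 1171 and 1071 in olanzapine. Olanzapine 18 alone lay above saline 19, the lowest saline array, and the log2 difference was -0.15 (SE 0.1, limma adjusted p 0.761).

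**Figure D4:**
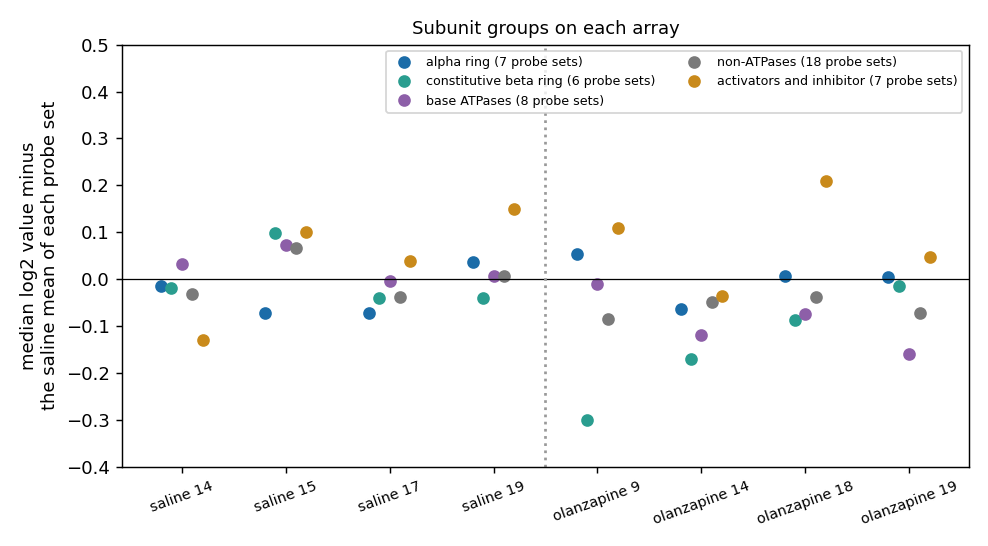
Median over the tested probe sets of each subunit group of the log2 value minus the saline mean of that probe set (vertical axis, log2 units), on each of the 8 arrays (horizontal axis). Constitutive beta subunits lie at -0.3 on olanzapine 9 and at -0.015 on olanzapine 19, beside saline 14 at -0.018.

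The median of all 46 members against the saline mean was 0.072 on saline 15, 0.012 on saline 19 and -0.023 and -0.038 on saline 14 and saline 17. It was -0.065, -0.068, -0.024 and -0.06 on olanzapine 9, 14, 18 and 19, so saline 17 lay within the olanzapine range. On these olanzapine arrays 28, 32, 28 and 26 of 46 members were below the saline mean, while the median of all probe sets was above it, at 0.051, 0.032, 0.019 and 0.029. On the saline arrays 28, 16, 27 and 19 members were below it. Saline 15 was the highest saline array for 18 of 46 members and the lowest for 8. Olanzapine 9 was the lowest olanzapine array for 21 of 46 members and the highest for 10.

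Other genes of the ubiquitin and proteasome pathway, taken as lists with the brightest tested probe set of each gene, gave no gene past the adjusted test either. Some of these genes have further probe sets, whose values are not given and can differ. Of 5 tested assembly chaperones of the core 3 were lower, with a median of -0.018 that was -0.076 after quantile normalization, and Psmg3 differed by -0.38 (SE 0.19), Psmg2 by 0.097 (SE 0.16) and Psmg1 by -0.069 (SE 0.16). Of 8 proteins that bind the proteasome 5 were lower, with a median of -0.063, or -0.016 after quantile normalization. Of these 8 genes 2, Usp14 and Zfand5, had an unadjusted limma p under 0.05, against 8.32% of all tested probe sets. Both were in the brightest class, where 64% of all probe sets were lower. Usp14, a deubiquitinase on the regulatory particle, was at 15332 ± 1378 in saline and 12659 ± 761 in olanzapine (SD, n = 4), a log2 difference of -0.27 (limma adjusted p 0.39) that quantile normalization brought to -0.016. Zfand5 differed by -0.24 (SE 0.088), or -0.21 once quantile normalized, and its groups did not overlap, against 4.47% of all tested probe sets in either direction. Sem1, a small lid subunit outside the Psm names, differed by 0.4 (SE 0.27), or 0.33. Of 8 shuttle factors and parts of the Vcp segregase 6 were lower, with a median of -0.072, or -0.071 after quantile normalization. An unadjusted limma p under 0.05 was found for 2, Ubqln2 and Ufd1, against the same 8.32%, and both were also in the brightest class. Ubqln2 differed by -0.26 (SE 0.08), or -0.073 once quantile normalized, and Ufd1 by -0.22 (SE 0.1), or -0.21. Ddi2, the protease that activates Nfe2l1, differed by 0.32 (SE 0.2), or 0.26. The groups did not overlap for Ubqln2, lower in olanzapine, and for Nploc4, a cofactor of Vcp named here after its values were seen, higher at 0.11 (SE 0.084). Over all tested probe sets this held for 2.07% in the lower and 2.4% in the higher direction. The ubiquitin-activating enzyme genes Uba1 and Uba6 differed by -0.015 (SE 0.088) and -0.026 (SE 0.11).

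Nfe2l1, the transcription factor that raises proteasome genes when proteasome activity falls, had the smallest p of 9 tested genes of transcription control. This gene has 3 probe sets, of which the brightest is given. It was at 1476 ± 130 in saline and 1770 ± 179 in olanzapine (SD, n = 4), a log2 difference of 0.25 (SE 0.11, limma adjusted p 0.544), and its groups overlapped. In this list 5 genes were higher and 4 lower, with a median of 0.062 that was 0.0067 after quantile normalization. Nfyc and Nfya of the CCAAT-binding factor differed by 0.21 (SE 0.1) and 0.23 (SE 0.17), and the remaining subunit of that factor, Nfyb, by -0.083 (SE 0.1).

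Nfe2l1 binds antioxidant response elements, and the core letters TGACNNNGC were found in 6 of 36 member promoters, against 10.1% of the 33469 windows of all genes. The matches are printed with up to 10 bases on each side within the window, on GRCr8, with the motif in capitals and read so that it starts with TGAC. The Psma3 and Psme4 matches and the Psmd9 match at chr12:39018370-39018398 were on the strand opposite to the gene.
Psma3, chr6:95219727-95219748: tgcTGACCCGGCaggccacaga
Psmb2, chr5:144254980-144255008: cccgcgccaaTGACCGGGCggtcgcatat
Psmb5, chr15:32047421-32047449: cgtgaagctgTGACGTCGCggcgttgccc
Psmd1, chr9:94157796-94157824: accagatctaTGACCTCGCgagaattata
Psmd9, chr12:39018323-39018351: gagtttccggTGACCTCGCcccacctcca
Psmd9, chr12:39018370-39018398: ggttttcagaTGACCCGGCagagctaagt
Psme4, chr14:108706578-108706606: ggcgaggaggTGACCCAGCggctttctcc
The log2 differences of these 6 genes had no common sign. Psma3 was at -0.052, Psmb5 at -0.1 and Psmd1 at -0.16, Psmb2 at 0.49, and the probe sets of Psmd9 and Psme4 ran from -0.38 to -0.016 and from -0.074 to 0.3.

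Markers of cell types were also read from the brightest probe set of each gene. For neurons and astrocytes some of these probe sets were bright and others dim. Probe sets of 1 gene can differ widely in intensity, as for Psme4, so the values do not rank genes by abundance. In saline Snap25 was at 21079 ± 1912, Rbfox3 at 5602 ± 822, Slc17a7 at 2352 ± 197 and Gfap at 1762 ± 401 (SD, n = 4). Gad2 was at 115 ± 64.9, Slc1a2 at 204 ± 57 and Aldh1l1 at 255 ± 83.7. The neuronal marker Syt1 and the 3 choroid plexus markers on the array were too dim to be tested. Meningeal markers were higher in olanzapine in 7 of 7 genes, with summed intensities of 2251 to 2882 in saline and 2992 to 8135 in olanzapine, and astrocyte markers were lower in 6 of 6, with 36747 to 42441 and 33638 to 37570. After quantile normalization the astrocyte marker Gja1 turned from -0.22 to 0.08, and Slc1a3 and Aqp4 went from -0.3 and -0.16 to -0.11 and -0.031. The median log2 difference was 0.57 over the meningeal and -0.19 over the astrocyte markers, or 0.53 and -0.091 after quantile normalization, and 0 of either passed an adjusted limma p of 0.05. As deposited it was 0.19 over 5 oligodendrocyte markers, 0.08 over 4 endothelial and 0.019 over 2 red blood cell markers, and -0.028 over 8 neuronal markers, a sign that quantile normalization turned, to 0.067. Of these neuronal markers 5 were lower and 3 higher as deposited. Snap25 differed by -0.35 (SE 0.08, limma adjusted p 0.317) and Stmn2 by -0.22 (SE 0.084), or -0.042 and -0.13 after quantile normalization. The groups did not overlap for Snap25 and the astrocyte marker Slc1a3, lower in olanzapine, against 2.07% of all tested probe sets in that direction. They also did not overlap for the meningeal markers Igf2, Col1a1 and Dcn and the endothelial marker Pecam1, at 0.38 (SE 0.11). These were higher in olanzapine, against 2.4% of all tested probe sets in that direction. Of 4 T cell markers 1 was bright enough to be tested, at 0.29. Their part in the subunit values was not tested, and in bulk tissue fewer cells of a type and less RNA per cell cannot be told apart.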

How the data were processed

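RNA of 8 frontal cortices was read on an Affymetrix rat array, 1 animal per array. The deposited values are linear probe set intensities, 1 table of 31099 probe sets, 57 of them controls. Trimmed of 2% at either end, the mean was 500.1 to 500.2 on every array, so the authors had scaled them. Software, background correction, probe summary, detection calls and build were not given in the sources used here.

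Names came from the platform's annotation, and symbols of genes other than the members were updated through RefSeq (GRCr8). Controls were left out. The analysis used log2(intensity + 63.4), where 63.4 is the 25th percentile over the table, and kept probe sets whose mean exceeded the 40th percentile. Olanzapine was compared with saline by limma 3.58.1 in R 4.3.3 (lmFit, eBayes with a mean-variance trend), two-sided, without covariates, with Benjamini-Hochberg adjustment over 18625 probe sets. On simulated data with 18625 probe sets and the variances of this comparison, 39.8% of 1.5-fold, 88.2% of 2-fold and 98.8% of 3-fold changes were called, and 6.68% of calls were false. Changes were added on the log2(intensity + 63.4) scale. The simulated noise was normal and independent between probe sets, without differences between arrays or a trend with brightness. These shares can therefore differ from those of the real arrays. The number of arrays limits the precision.

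All member genes were named. Full values were given for members whose groups did not overlap, the 8 with the smallest p, proteolytic and immune beta subunits, caps and the inhibitor, and genes whose tested probe sets differed in sign. From each pathway list the 3 genes with the smallest p were named, with their log2 differences. Members, lists and rules were chosen with earlier results of these data known. Alternatives covered normalization, the added value, the filter, the variance model, array weights, each array left out and the animal number as a block. Promoter windows came from RefSeq on GRCr8.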

Additional observations from a re-analysis of the deposited data

Results flagged for a closer look

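In 5 of 108 groups of 4 arrays, each a member probe set in 1 treatment, a single array stood apart from the other 3 by more than Dixon's 95% limit. Chance alone gives about 5.4, or 5%. Log2 values of Psmb3 were 10.03 on saline 15 and 9.39 to 9.47 on the other saline arrays. Psmd9 (1397686_at) was at 7.5 on olanzapine 18 and 8.02 to 8.13 on the others, and Psme2 at 8.79 on olanzapine 19 and 8.39 to 8.43 on the others. Psmc6 (1384323_at) was at 9.99 on olanzapine 9 against 10.15 to 10.17, and Psmd11 (1376069_at) at 12.09 on olanzapine 14 against 12.25 to 12.29.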

How the results depend on the processing

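In none of the 19 alternatives did a proteasome probe set pass an adjusted p of 0.05. The member median kept its sign in all of them, from -0.12 after median centring to -0.034 without olanzapine 14, and 29 of 46 probe sets kept theirs, 19 below 0 and 10 above. The number of members at an unadjusted limma p under 0.05 was 1 in the fit as reported, against 8.32% of all tested probe sets. It was 3 of 46 after quantile normalization, cyclic loess or median centring, without a variance trend and with array weights, and 3 of 54 without the filter. The share of all probe sets was not computed for these alternatives, so the change in this number cannot be set against it, and the cause was not tested. With 1 array left out the number of members at an unadjusted p under 0.05 ran from 0 to 6, the count of members without overlap from 2 to 6, the members lower in olanzapine from 27 to 31, and all probe sets past the adjusted test from 0 to 107. With quantile normalization the sign turned for Psme2 (1367710_at) to -0.036, Psme4 (1368818_at) to 0.014, Psmb4 (1398831_at) to 0.014, Psmd11 (1376069_at) to 0.042 and Psmd12 (1392983_at) to 0.049. With cyclic loess the sign turned for Psme2 (1367710_at) to -0.045, Psme4 (1368818_at) to 0.025, Psmb4 (1398831_at) to 0.0065, Psmd11 (1376069_at) to 0.047 and Psmd12 (1392983_at) to 0.059. With median centring the sign turned for Psme2 (1367710_at) to -0.033, Psma1 (1398778_at) to -0.005 and Psmd14 (1383429_at) to -0.023. With array weights the sign turned for Psme2 (1367710_at) to -0.052, Psmc5 (1367833_at) to 0.031 and Psmd9 (1368184_at) to 0.11. With 1 array left out these differences passed 0: Psme1 (1394006_at) from -0.01 to 0.23, Psme2 (1367710_at) from -0.2 to 0.16, Psme4 (1368818_at) from -0.16 to 0.026, Psma4 (1367837_at) from -0.011 to 0.2, Psmc5 (1367833_at) from -0.14 to 0.078, Psmc6 (1382385_at) from -0.014 to 0.15, Psmd14 (1383429_at) from -0.021 to 0.1, Psmd14 (1386073_at) from -0.11 to 0.02, Psmd8 (1389519_at) from -0.021 to 0.19 and Psmd9 (1368184_at) from -0.16 to 0.17.

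Numbers 14 and 19 occur in both groups, but the animals differ. Deviations from the group means correlated by 0.0746 for number 14 and 0.109 for number 19. Pairs with unlike numbers ran from -0.128 to 0.132. Such correlations, from 4 arrays per group, cannot show whether the samples share more than a number. With the replicate block, whose difference rests on these 4 arrays, 6 probe sets passed in all and 0 members passed. This fit leaves little to estimate the spread between arrays, so its tests say little about the members. The member median was -0.05, and the sign turned for Psme1 (1394006_at) to -0.12, Psme2 (1367710_at) to -0.024, Psmc5 (1367833_at) to 0.041, Psmb5 (1371348_at) to 0.077, Psmd11 (1374712_at) to 0.036 and Psmd6 (1371851_at) to 0.0013.

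The number of arrays limits what can be seen. Members at or below the brightness filter, the immune subunits among them, have no test.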
